A study of Mus musculus with 36 samples.

Results

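The 10 genes described here encode transcription factors of the naive pluripotent state of mouse embryonic stem cells (mES cells): Nanog, Klf2, Klf4, Klf5, Esrrb, Tfcp2l1, Zfp42, Tbx3, Prdm14 and Nr0b1. They were chosen by gene symbol, and 10 of 10 were listed in every one of the 6 deposited tables, among 18419 genes listed in all tables. All 10 passed the filter on low counts in each line.

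RNA was followed by SLAM-seq, in which 4-thiouridine (4sU) enters RNA made during a pulse and is later read as a T-to-C mismatch. The 36 libraries came from 3 female mES cell lines of a Cast x 129S cross, each a single clone. Clone 12D carried the FKBP12 F36V tag on METTL3, clone Y12H carried it on YTHDC1, and clone Z12H carried it on ZCCHC8. METTL3 is the catalytic subunit of the enzyme that writes N6-methyladenosine (m6A) on RNA, YTHDC1 is a nuclear protein that binds m6A, and ZCCHC8 belongs to the NEXT complex, which delivers nuclear RNA to the exosome for decay. In the dTAG arm, dTAG-13, which sends the tagged protein to degradation, was added 2 h before doxycycline, and the Ctrl arm received no dTAG-13. Every group, Ctrl included, carried the tag, a TetOn promoter in place of the Xist promoter on the 129S allele and Bgl stem loops in Xist, and received doxycycline (1 µg/ml, 20 h before and 4 h during the pulse) and 500 µM 4sU for 4 h. The label was then chased with 50 mM uridine for 0, 90 or 180 min, and each of the 18 groups had 2 replicates. The cells were kept on inactivated fibroblast feeders, which were removed by preplating, in 10% fetal calf serum with 1000 U/ml LIF, that is, without the kinase inhibitors that many laboratories use to hold cells in the naive state. The study asked how m6A and NEXT act on the turnover of Xist; the question put to these genes is whether the RNA of the pluripotency factors changed in the same cells.

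In mES cells the naive state rests on a network of transcription factors that bind one another's genes. LIF acts through STAT3 on Klf4 and Tfcp2l1, and the kinase GSK3, by destabilising β-catenin, keeps TCF7L1 free to repress Esrrb, Nanog, Tfcp2l1 and Klf2. Nanog is a homeobox factor, Klf2, Klf4 and Klf5 are zinc finger factors with overlapping roles, and Esrrb and Nr0b1 (DAX1) are orphan nuclear receptors, of which Nr0b1 acts mainly as a repressor and lies on the X chromosome. Tfcp2l1 is a grainyhead-like factor, Zfp42 (REX1) a zinc finger protein used as a reporter of the naive state, Tbx3 a T-box factor and Prdm14 a repressor of FGF signalling and DNA methyltransferase genes. Transcripts of several of these factors are known to carry m6A and to be short-lived, which makes them common examples in studies of m6A in ES cells.

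The motif GGACT is one of the forms in which m6A is usually written, with the methyl group on its A. It was searched for on the sense strand of 1 transcript of each gene (GENCODE M21, mm10). The copy nearest to the stop codon is shown, within 25 bases, for the 7 factors with a copy that passed the test of dTAG against Ctrl in the METTL3 line with the replicate block or in the ZCCHC8 line without it. Capitals mark GGACT.
Nanog: acttcggggaGGACTttctgcagcc
Klf2: acaacgtgttGGACTtcatcctctc
Klf4: gaacatgcccGGACTtacaaaatgc
Tfcp2l1: cctgaagtgtGGACTctgagcagca
Zfp42: aaggggatggGGACTtttgcatacg
Tbx3: cggtggctgtGGACTcggggtcgga
Prdm14: agtgctgctaGGACTtaactgctaa

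The Nanog window lies at chr6:122713386-122713410 (plus strand, coding part of exon 4 of 4), 157 bases before the stop codon. That of Klf2 is at chr8:72319475-72319499 (plus, coding, exon 2 of 3) and that of Tbx3 at chr5:119682908-119682932 (plus, coding, exon 7 of 7). The Tfcp2l1 window spans its stop codon at chr1:118677416-118677440 (plus, exon 15 of 15), with the motif starting 6 bases before it. The windows of Klf4 (chr4:55527792-55527816, minus), Zfp42 (chr8:43295338-43295362, minus) and Prdm14 (chr1:13113833-13113857, minus) lie in the 3′ untranslated part of the last exon. Nr0b1 (chrX:86191764-86195947, plus) held 0 copies of GGACT in its transcript of 1808 bases. Tfcp2l1 held 16 copies in 9269 bases, Esrrb and Tbx3 7 each, Klf4 5, Nanog 4, Klf5 3, Zfp42 2, and Klf2 and Prdm14 1 each. Of 14737 genes tested that had a transcript, 92.4% held at least 1 copy, with a median of 1.04 per kb, and the median of the 10 factors was 1.25 per kb. m6A was not measured in these libraries, and a match is a description of the sequence.

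Depth ranged from 5274684 to 18652000 reads per library. The mES cell markers Pou5f1, Sox2, Nanog, Zfp42, Dppa5a and Utf1 summed to 1717 to 2896 CPM in every library (CPM is a gene's read count relative to the effective size of its library). The 9 feeder fibroblast markers summed to 30.04 to 65.6 CPM, most of it Fbn1 (17.6 to 39.8 CPM). Lum was at 0 in 22 libraries, and Postn, Col3a1 and Dcn were at most 0.394, 0.933 and 1.34 CPM. Thy1, Col5a2, Col1a1 and Col1a2 were detected in every library and reached 16.22, 8.629, 7.865 and 4.525 CPM. Between replicates of a group, chi-square per degree of freedom was 2.34 to 72.6, above what sampling noise gives. The libraries are bulk RNA, so fewer cells of a state and less RNA per cell cannot be told apart. The degron removes protein, so no mRNA level here checks the depletion.

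In the 18 Ctrl libraries, levels per kb of transcript placed Zfp42 first at 240.2 ± 52.7 CPM per kb (mean ± SD, n = 18). Esrrb at 114.1 ± 23.3 and Nanog at 112.2 ± 25.01 CPM per kb followed and did not differ beyond their spread. Nr0b1 (49.9 ± 15.7), Klf4 (47.8 ± 18.5), Tfcp2l1 (36.2 ± 7.89), Klf2 (33.4 ± 16.1) and Klf5 (28.5 ± 13.1) formed a middle group of CPM per kb, each within the spread of the next. Tbx3 at 15.7 ± 5.48 and Prdm14 at 7.48 ± 1.96 CPM per kb were lowest. The length deposited for Klf5, 1721 bases, is shorter than its annotated transcript of 3352 bases, so its level per kb is less certain than the others. Reads per library ranged from 93 for Prdm14 and 94 for Klf5 in their shallowest library to 10082 for Zfp42 in its deepest.

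Some of the factors differed more between the replicates of a line than between its arms. Klf5 had 17.6 ± 12.3 CPM in replicate 1 and 55.3 ± 8.49 CPM in replicate 2 of the METTL3 line, and 19.5 ± 3.88 against 68.3 ± 9.14 CPM in the YTHDC1 line (SD, 6 libraries each, both arms). In both lines the ranges of the replicates did not overlap. Klf5 in the ZCCHC8 line was at 55.7 ± 5.79 and 63.8 ± 7.26 CPM. Klf4 was higher in replicate 2 by 0.85, 0.93 and 0.32 on the log2 scale in the METTL3, YTHDC1 and ZCCHC8 lines, and Tbx3 by 0.66, 0.82 and 0.58. Zfp42 went the other way in the METTL3 and YTHDC1 lines, with replicate 2 minus replicate 1 at -0.53 and -0.39, and was at 0.15 in the ZCCHC8 line. Because libraries with the same replicate number deviated together across all genes, each comparison is given without and with the replicate number as a block.

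**Figure D1:**
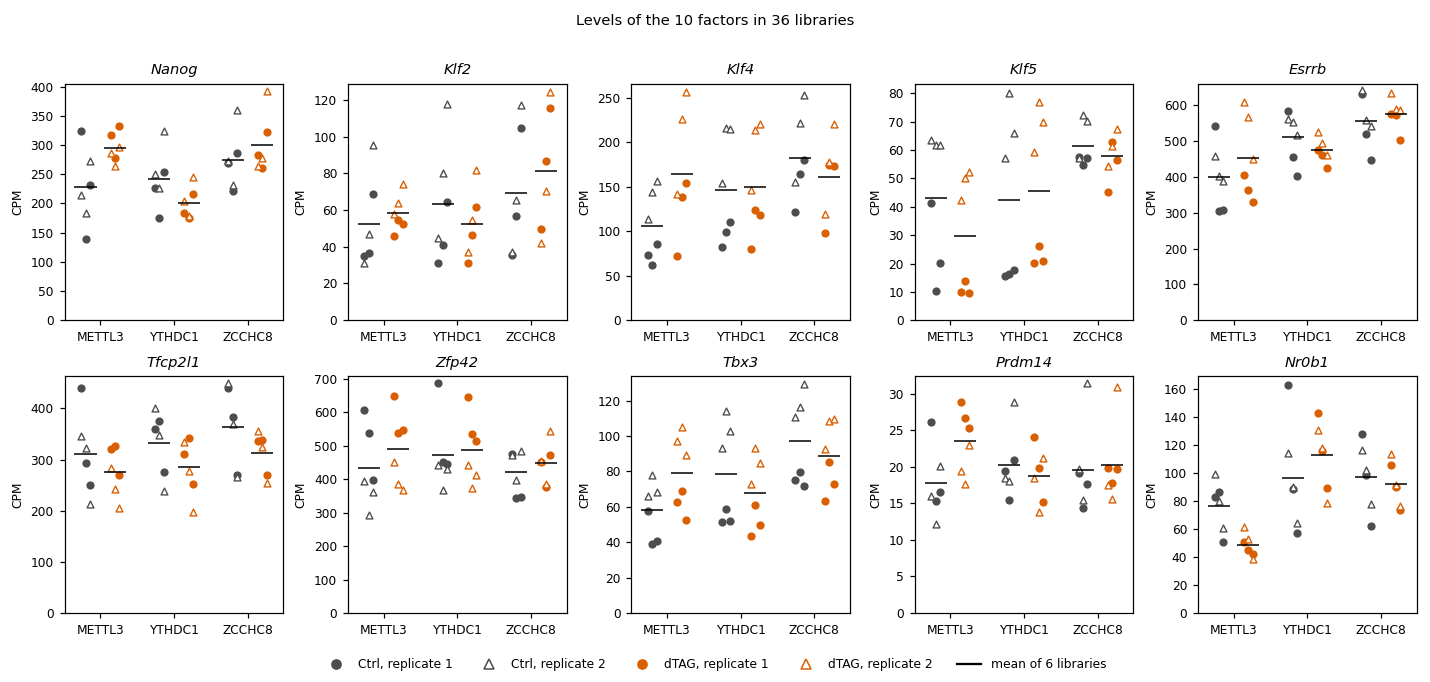
Level of each factor (CPM, y axis) in all 36 libraries by line, with Ctrl in grey and dTAG in orange, replicate 1 as filled circles and replicate 2 as open triangles, and a bar at the mean of 6 libraries. Nr0b1 in the METTL3 line is lower in dTAG (mean 48.4 CPM) than in Ctrl (76.7 CPM), and the replicates of Klf5 stand apart in the METTL3 and YTHDC1 lines.

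In the METTL3 line, Nr0b1 fell with dTAG-13 and none of the other factors passed the test without the block. Of all 14413 genes tested, 20.1% passed at an adjusted p of 0.05 (edgeR quasi-likelihood test, Benjamini-Hochberg adjustment), against 1 of the 10 factors. Nr0b1 was at 83.0 and 99.2 CPM at 0 min, 86.5 and 80.3 CPM at 90 min, and 50.6 and 60.9 CPM at 180 min in Ctrl replicates 1 and 2. In dTAG it was at 51.0 and 61.6, 44.8 and 52.7, and 42.0 and 38.6 CPM at the same times. At every chase time both dTAG libraries were below both Ctrl libraries, although the 6 Ctrl and 6 dTAG libraries overlapped when chase times were pooled, since the level also fell over the chase. The log2 fold change was -0.62 (SE 0.11, edgeR adjusted p = 0.00287; with the block adjusted p = 1.07e-05), lower in 6 of 6 pairs of one replicate and time. Without the 0 min libraries it was -0.61 and no longer passed (edgeR adjusted p = 0.0542). Because Nr0b1 is X-linked and Xist was induced in both arms, it is set beside the other X-linked genes: in this line their median log2 fold change, without Xist, was -0.042 over 534 genes, 46 higher and 50 lower, and 7.12% of them lay below Nr0b1.

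Nanog in the METTL3 line averaged 228.0 ± 65.2 CPM without and 295.6 ± 25.7 CPM with dTAG-13 (SD, n = 6), with Ctrl libraries from 139.8 to 324.7 CPM and dTAG libraries from 263.5 to 332.7 CPM. The lowest dTAG library was above 4 of the 6 Ctrl libraries. The log2 fold change was 0.43 (SE 0.14, edgeR adjusted p = 0.0545), which passed only with the block (adjusted p = 0.00488). Klf4, with 105.8 ± 38.6 CPM in Ctrl against 164.7 ± 66.3 CPM in dTAG, had the highest log2 fold change of the 10 at 0.61 (SE 0.29, adjusted p = 0.158 without and 9.69e-05 with the block, edgeR adjusted). At 0 min, Klf4 replicates 1 and 2 had 72.8 and 113.7 CPM in Ctrl against 72.3 and 141.5 CPM in dTAG, and at 180 min 86.0 and 156.7 against 154.7 and 256.2 CPM. The arms were thus close at the end of the pulse and apart later.

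Tbx3 (58.3 ± 15.7 to 79.3 ± 20.9 CPM, log2 0.46) and Prdm14 (17.7 ± 4.83 to 23.5 ± 4.31 CPM, log2 0.45) were higher in 6 of 6 pairs, as was Zfp42 (432.3 ± 116.9 to 490.3 ± 107.5 CPM, log2 0.21). Their edgeR adjusted p was 0.179, 0.0944 and 0.467 without the block and 0.000489, 0.00484 and 0.0324 with it. With the block, 48.5% of all genes passed in this line, and 6 of the 10 factors, 5 higher and 1 lower. Klf2 (log2 0.28), Esrrb (0.22), Tfcp2l1 (-0.13) and Klf5 (-0.51, SE 0.58) passed neither of these fits. The median log2 fold change of the 10 was 0.25, beside 0.0056 over all genes. In the same line 1 of 3 trophectoderm markers tested passed, Eomes. The 6 marker genes summed to 16.1 to 33.0 CPM in Ctrl and 21.6 to 68.9 CPM in dTAG, ranges that overlapped, with Cdx2 at most 0.879 CPM in any library and Eomes rising from 4.05 ± 1.83 to 14.01 ± 6.48 CPM. Their part in the values of the factors was not tested.

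In the YTHDC1 line, 5.25% of 14199 genes passed and 0 of the 10 factors did, with 3 at an unadjusted p under 0.05 (edgeR) and 1 called by DESeq2. Of the 14199 genes, 2651 had an unadjusted p under 0.05 (edgeR). With the block, 27.3% of all genes and 4 factors passed, Nanog, Tfcp2l1 and Tbx3 lower and Nr0b1 higher. Nanog was at 227.1 and 250.4, 174.6 and 226.4, and 253.9 and 324.0 CPM in Ctrl replicates 1 and 2 at 0, 90 and 180 min. In dTAG it was at 183.8 and 204.8, 175.2 and 178.3, and 216.2 and 244.6 CPM. Nanog was lower with dTAG-13 in 5 of 6 pairs, with a log2 fold change of -0.27 and an SE of 0.09 (edgeR adjusted p = 0.123; with the block adjusted p = 0.000326). Tfcp2l1, with 332.7 ± 62.6 CPM in Ctrl against 285.9 ± 55.3 CPM in dTAG, was lower in 6 of 6 pairs (log2 -0.21, edgeR adjusted p = 0.2; with the block adjusted p = 0.00894).

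Nr0b1 in the YTHDC1 line averaged 96.3 ± 38.5 CPM without and 112.7 ± 24.5 CPM with dTAG-13, which gave a log2 fold change of 0.28 with an SE of 0.11 (edgeR adjusted p = 0.179; with the block adjusted p = 0.0485). At 90 and 180 min both dTAG libraries were above both Ctrl libraries, and at 0 min they lay between them. Tbx3 had a log2 fold change of -0.22 (edgeR adjusted p = 0.734; with the block adjusted p = 0.0101). The other 6 factors ranged from -0.25 for Klf2 to 0.12 for Klf5 and passed neither of these fits. Klf2 depended on the replicate, with -0.46 in replicate 2 and 0.027 in replicate 1. The median of the 10 was -0.10, beside 0.0064 over all genes. Feeder markers summed to 31.0 to 57.4 CPM in Ctrl and 45.01 to 63.4 CPM in dTAG libraries of this line, and their part in these values was not tested.

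With dTAG-13 in the ZCCHC8 line, Klf2 and Nanog rose and Tfcp2l1 fell. There 39.6% of 13962 genes passed, against 3 of the 10 factors. Klf2 was at 35.6 and 37.3, 56.9 and 65.7, and 104.7 and 117.2 CPM in Ctrl replicates 1 and 2 at 0, 90 and 180 min, and at 49.8 and 42.0, 86.8 and 70.4, and 115.7 and 124.3 CPM in dTAG. It was higher with dTAG-13 in 6 of 6 pairs, a difference far smaller than its rise over the chase. The log2 fold change was 0.31 (SE 0.065, edgeR adjusted p = 0.000465). In each replicate by itself it was 0.17 (replicate 2) and 0.45 (replicate 1).

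Nanog in this line averaged 273.8 ± 49.4 CPM without and 299.8 ± 50.8 CPM with dTAG-13 (SD, n = 6), with ranges of 221.8 to 360.8 and 260.3 to 392.8 CPM that overlapped over most of their length. It rose by 0.20 on average in log2, with an SE of 0.062 (edgeR adjusted p = 0.0141), and was higher in 5 of 6 pairs. Tfcp2l1 fell from 363.3 ± 79.9 to 313.0 ± 41.0 CPM, with a log2 fold change of -0.13 and an SE of 0.05 (edgeR adjusted p = 0.0353). That difference lay mostly in the 0 min libraries, which had 440.6 and 450.0 CPM in Ctrl and 335.5 and 354.9 CPM in dTAG. Without them the log2 fold change of Tfcp2l1 was -0.045 (edgeR adjusted p = 0.524), and without replicate 2 it was -0.13 (adjusted p = 0.249). With the block, 45.9% of all genes passed and 5 factors, which added Esrrb (0.12, adjusted p = 0.0158) and Klf4 (-0.13, adjusted p = 0.0344). Nr0b1 was at 97.6 ± 24.4 and 92.0 ± 15.9 CPM, a log2 fold change of -0.0036 (SE 0.058), while the median of the other 496 X-linked genes tested was -0.22, with 46 higher and 228 lower. The median of the 10 factors was 0.053, beside -0.0035 over all genes.

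**Figure D2:**
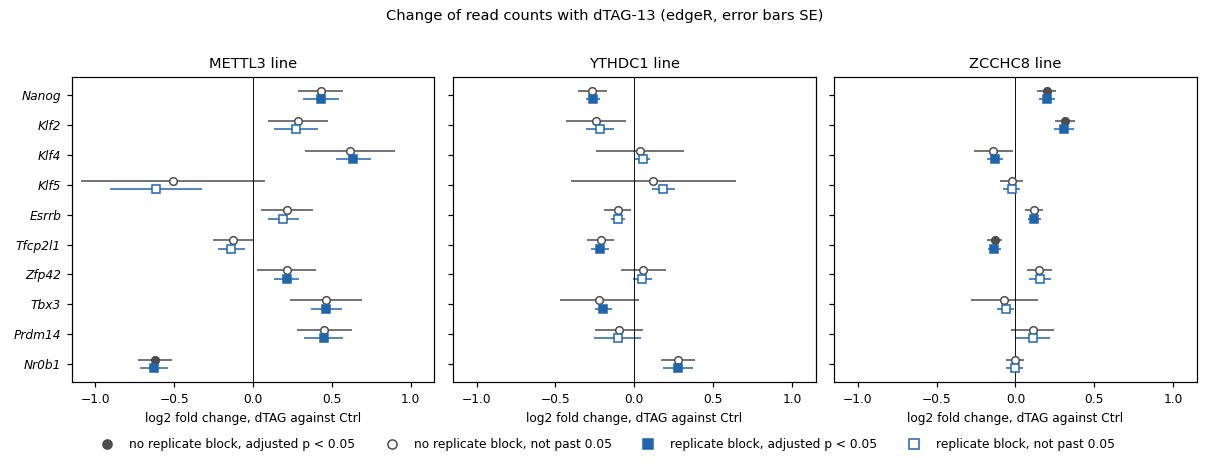
log2 fold change of each factor's read count, dTAG against Ctrl, in the 3 lines (x axis), with SE bars, from edgeR without (circles) and with (squares) the replicate block, filled where the adjusted p is under 0.05. Filled circles mark Nr0b1 (-0.62) in the METTL3 line and Nanog (0.20), Klf2 (0.31) and Tfcp2l1 (-0.13) in the ZCCHC8 line.

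The 6 libraries of an arm were 2 replicates at 3 chase times, so they were also summed over the chase, 2 against 2. These sums called 0 factors and 0 genes in the METTL3 and YTHDC1 lines, with 1433 and 696 genes at an unadjusted p under 0.05, and 1 factor, Klf2 (log2 0.24, edgeR adjusted p = 0.0219), in the ZCCHC8 line. With the block the sums called 6, 5 and 6 factors. For the METTL3 line these differed from the 6 called without summing: Zfp42 was lost (log2 0.21, edgeR adjusted p = 0.282) and Klf5 was called lower (log2 -0.58, adjusted p = 0.00619). In the YTHDC1 line the sums added Klf2 (log2 -0.27, edgeR adjusted p = 0.000107), and in the ZCCHC8 line Zfp42 (log2 0.17, adjusted p = 2.49e-05). The labels do not state that replicates were separate cultures, so p-values measure the spread between these samples. The paper states that wells of a biological replicate came from a shared batch of cells and were divided at random between conditions. If the replicate numbers follow those batches, the fits with the block are the ones that keep this pairing.

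Whether the response to dTAG-13 differed between lines was tested as an interaction over all 36 libraries, in which each pair of comparisons shares a line. Nanog responded more positively in the METTL3 than in the YTHDC1 line, with a log2 difference of 0.67 and an SE of 0.15 (edgeR adjusted p = 0.00161). Nr0b1 responded more negatively in the METTL3 line, by -0.93 against the YTHDC1 line (SE 0.14, adjusted p = 1.12e-05), and the ZCCHC8 minus METTL3 difference was 0.59 (SE 0.14, adjusted p = 0.00178, edgeR adjusted). The last was 0.54 without replicate 2 and no longer passed (adjusted p = 0.0935). Between the METTL3 and YTHDC1 lines 20.6% of all genes passed, between ZCCHC8 and METTL3 23.7%, and between ZCCHC8 and YTHDC1 14.4%, where 0 of the 10 factors passed and 3 had an unadjusted p under 0.05 (edgeR; DESeq2 called 1). Between ZCCHC8 and YTHDC1, 3921 of all 15105 genes had an unadjusted p under 0.05 (edgeR). With the block the shares of all genes were 42.8%, 43.5% and 32.3%. The factors passing were then 8 between METTL3 and YTHDC1 (all but Tfcp2l1 and Zfp42), 3 between ZCCHC8 and METTL3 (Klf4, Tbx3 and Nr0b1) and 3 between ZCCHC8 and YTHDC1 (Nanog and Klf2 higher, Nr0b1 lower). On libraries summed over the chase with the block, 2 passed between ZCCHC8 and YTHDC1, both higher, and the call of Nr0b1 was lost. Of all 16560 genes, 1415 were higher and 1367 lower in that fit. For Klf4 the ZCCHC8 minus METTL3 difference was -0.80 and for Tbx3 -0.56, with edgeR adjusted p of 0.12 and 0.236 without and 1.58e-06 and 3.11e-05 with the block.

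Without dTAG-13, some of the factors were higher in the ZCCHC8 than in the METTL3 line. A line is 1 clone, so line and clone cannot be told apart. Depth also ran lower in the ZCCHC8 line, and its part in these values was not tested. Of the 10, 5 were higher in ZCCHC8 Ctrl libraries and 0 lower, where 30.7% of all genes passed. They were Klf4 (log2 0.76, edgeR adjusted p = 0.0338), Tbx3 (0.72, adjusted p = 0.0337), Esrrb (0.47, adjusted p = 0.00437), Nr0b1 (0.32, adjusted p = 0.0315) and Tfcp2l1 (0.21, adjusted p = 0.0451). Esrrb, for example, averaged 400.8 ± 90.6, 513.1 ± 69.5 and 557.9 ± 72.6 CPM in METTL3, YTHDC1 and ZCCHC8 Ctrl libraries (SD, n = 6). Without the filter on low counts 1 of the 10 passed, and with the block 7 passed, with 53.8% of all genes. METTL3 and YTHDC1 Ctrl libraries differed at 2.43% of genes and 0 factors (2 at an unadjusted p under 0.05, edgeR; DESeq2 called 1), and with the block at 14.3% of genes and at Klf4 (-0.43), Esrrb (-0.36) and Tbx3 (-0.39). ZCCHC8 and YTHDC1 Ctrl libraries differed at 13.6% of genes and 0 factors (0 at an unadjusted p under 0.05 and 0 by DESeq2), and with the block at 46.8% of genes and at Klf4 (0.38), Klf5 (0.86) and Tbx3 (0.34). The value of Klf5 rested on replicate 1, in which it was 1.75, while in replicate 2 no factor was above 0.21. Of 14267 genes tested between Ctrl libraries, 2351 had an unadjusted p under 0.05 (edgeR) for METTL3 against YTHDC1 and 5241 for ZCCHC8 against YTHDC1.

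The share of a factor's reads assigned to RNA made during the pulse, deposited as the maximum of the posterior (MAP) of the new-to-total ratio, separated the factors into groups. At the end of the 4 h pulse it was 0.944 ± 0.037 for Klf5, 0.940 ± 0.039 for Klf4, 0.934 ± 0.031 for Zfp42, 0.927 ± 0.043 for Tbx3 and 0.912 ± 0.067 for Klf2 in the 6 Ctrl libraries of the 3 lines (SD). Almost all reads of these 5 were thus labelled, while the median over 7011 genes measured in every library was 0.462 to 0.571 per library. Esrrb (0.797 ± 0.030), Prdm14 (0.786 ± 0.049) and Nanog (0.709 ± 0.036) were lower and also above the median of all genes. Nr0b1, at 0.512 ± 0.040, was within the range of library medians, and Tfcp2l1, at 0.332 ± 0.023, was below it.

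Over the chase the labelled share of 8 factors was lower at 180 than at 0 min in 12 of 12 series, a series being the 0, 90 and 180 min libraries of one line, arm and replicate. That of Klf2 went furthest, from 0.912 at 0 min to 0.474 ± 0.115 at 90 min and 0.248 ± 0.080 at 180 min in Ctrl (SD, n = 6), and Klf4 and Tbx3 reached 0.313 ± 0.083 and 0.297 ± 0.085. A median of 27.2% of the 0 min share of Klf2 was left at 180 min (range over the 12 series 15.8 to 41.1%), 31.0% for Tbx3, 31.3% for Klf4, 37.5% for Klf5, 45.4% for Prdm14, 46.7% for Zfp42, 51.5% for Nanog and 62.8% for Esrrb. Each of these 8 medians lay below the lowest median of all genes in a series, which ranged from 77.5 to 119.2%. Their ranges overlap between neighbours in this order, and 93.8% and 94.9% were left in the highest series of Nanog and Esrrb.

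The time course differed in shape as well. The shares of Klf2, Klf4 and Tbx3 were already lower at 90 min, whereas Nanog had 0.690 ± 0.057 at 90 min and 0.409 ± 0.103 at 180 min, and Esrrb 0.766 ± 0.066 and 0.498 ± 0.088. Zfp42 lay between, at 0.806 ± 0.066 and 0.446 ± 0.091. A straight line on the log scale therefore gives only an apparent half-life of the labelled share, with medians over the 12 series of 96.0 min for Klf2, 106.6 min for Tbx3, 107.5 min for Klf4, 127.1 min for Klf5, 158.1 min for Prdm14, 163.9 min for Zfp42, 188.8 min for Nanog and 269.5 min for Esrrb. From 0 and 90 min alone the value for Nanog was 2862 min. In the ZCCHC8 line the mean share of Nanog was higher at 90 than at 0 min. It was 0.734 against 0.694 in Ctrl and 0.683 against 0.638 in dTAG (means of 2 replicates). This was not particular to Nanog. In that line the median share of 7011 genes was 0.612 against 0.494 and 0.623 against 0.537 in Ctrl replicates 1 and 2. In dTAG it was 0.568 against 0.501 and 0.585 against 0.495. Over all libraries the middle value of these medians was 0.536, 0.571 and 0.443 at 0, 90 and 180 min. Both decay and unlabelled synthesis lower the share, so these values are not decay rates of the RNA alone.

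Tfcp2l1 and Nr0b1 went against the other 8, though not against genes in general. Of 7011 genes, 38.1 to 70.1% per series had a lower share at 180 than at 0 min, so a share that did not become lower was common. The labelled share of Tfcp2l1 went from 0.332 ± 0.023 at 0 min to 0.417 ± 0.028 at 90 min and 0.476 ± 0.027 at 180 min in Ctrl, and it was higher at 180 than at 0 min in 12 of 12 series (median 139.3% of the 0 min share, range 101.6 to 186.7%). That of Nr0b1 was 0.512 ± 0.040, 0.615 ± 0.040 and 0.582 ± 0.064, and was higher at 180 than at 0 min in 10 of 12 series. No median half-life of the labelled share is given for these 2 factors, since the share did not become lower in most series.

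**Figure D3:**
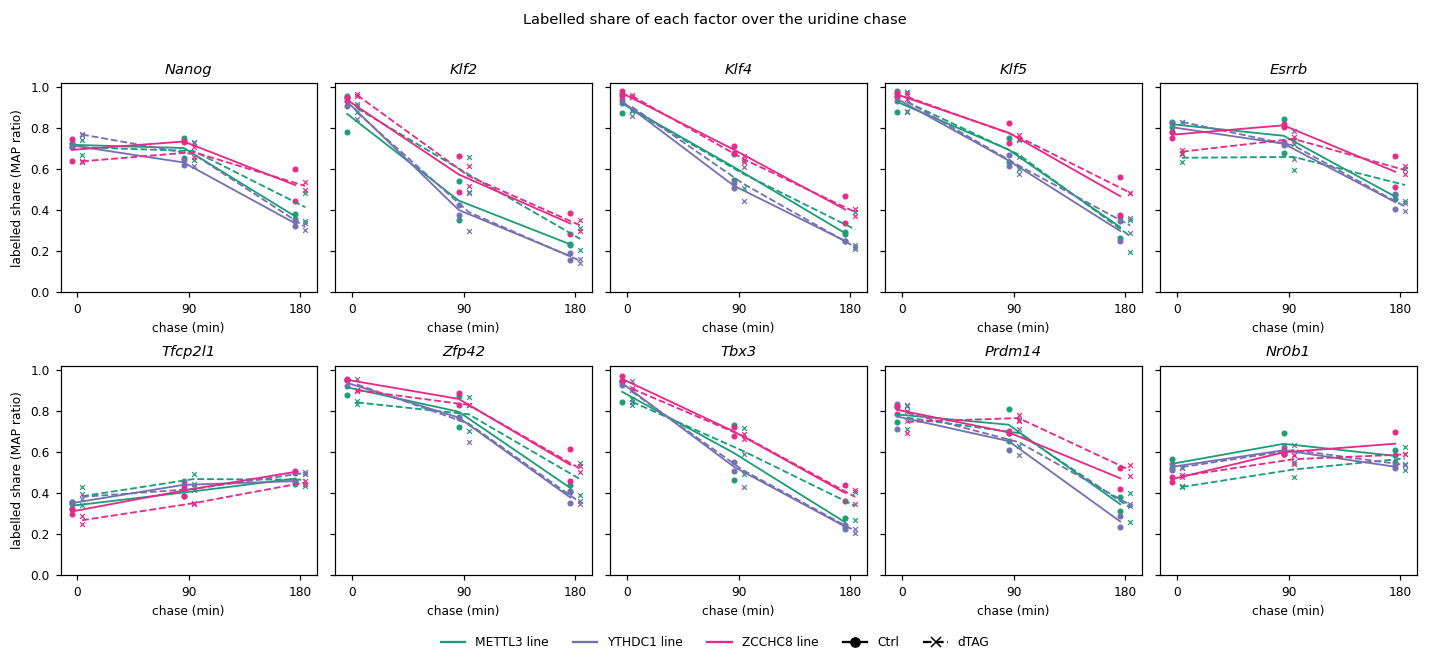
Labelled share (MAP ratio, y axis, from 0 to 1) of each factor at 0, 90 and 180 min of uridine chase (x axis), by line (colour) and arm (circles and solid lines for Ctrl, crosses and dashed lines for dTAG). Points are libraries and lines join the means of 2 replicates. The share of Klf2 falls to 0.248 in Ctrl at 180 min while that of Tfcp2l1 rises to 0.476.

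Read counts of the factors also moved over the chase, and the parts that moved are seen when CPM is divided into labelled CPM (the MAP ratio times CPM) and unlabelled CPM. In ZCCHC8 Ctrl libraries Klf2 had 34.2 labelled and 2.30 unlabelled CPM at 0 min and 36.8 labelled and 74.1 unlabelled CPM at 180 min (means of 2 replicates). In this line the labelled part stayed at a similar level, whereas labelled Klf2 was at 28.5 and 19.1 CPM in METTL3 and at 35.3 and 15.6 CPM in YTHDC1 Ctrl libraries at 0 and 180 min. Unlabelled Klf2 was higher at 180 than at 0 min in all 3 lines. Tfcp2l1 in the same libraries had 137.9 labelled and 307.4 unlabelled CPM at 0 min and 134.9 and 133.6 CPM at 180 min, so the unlabelled part, made before the pulse or during the chase, was the part that became smaller. For Nr0b1 both parts were smaller at 180 min, from 57.1 to 44.3 labelled and from 65.3 to 25.7 unlabelled CPM. Klf4 went from 134.6 labelled and 3.93 unlabelled CPM to 84.7 and 131.7 CPM, with a smaller labelled part at 180 min, and Nanog had 188.3 and 83.0 CPM at 0 min and 165.7 and 157.5 CPM at 180 min.

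**Figure D4:**
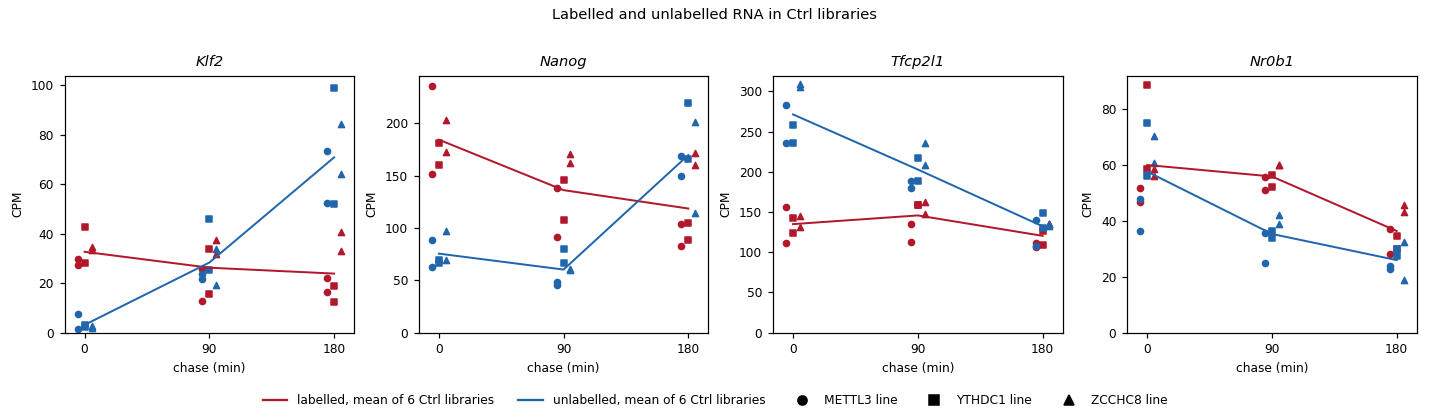
Labelled (red) and unlabelled (blue) CPM (y axis) of Klf2, Nanog, Tfcp2l1 and Nr0b1 over the chase (x axis, min) in the 18 Ctrl libraries, with a point shape for each line and a line through the mean of 6 libraries. Unlabelled Klf2 in the ZCCHC8 line goes from 2.30 to 74.1 CPM (mean of 2 replicates), and unlabelled Tfcp2l1 from 307.4 to 133.6 CPM.

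Tested between 180 and 0 min over both arms, Klf2 rose and Tfcp2l1 and Nr0b1 fell in all 3 lines. The log2 fold change of Klf2 was 0.79 (SE 0.24, edgeR adjusted p = 0.0433) in the METTL3, 1.16 (SE 0.24, adjusted p = 0.00252) in the YTHDC1 and 1.49 (SE 0.081, adjusted p = 1.2e-12) in the ZCCHC8 line. In the METTL3 line the arms differed: Klf2 went from 33.0 to 82.0 CPM in Ctrl and from 51.8 to 63.4 CPM in dTAG (means of 2 replicates at 0 and 180 min). There dTAG minus Ctrl was 0.40 to 0.88 on the log2 scale in the 4 pairs at 0 and 90 min and -0.38 and -0.36 at 180 min, a difference between arms that was not tested. Tfcp2l1 had -0.59, -0.55 and -0.56, and Nr0b1 -0.63, -0.96 and -0.68, in the same order. In the METTL3 line 16.1% of all genes passed and 3 factors, and in the YTHDC1 line 41% and 3. The ZCCHC8 line had 60.5% passing and 7 factors, which added Klf4 (0.74), Nanog (0.32) and Klf5 (0.23), higher, and Esrrb (-0.26), lower. With the block, 47.3%, 67.2% and 64.3% of all genes passed and 6, 7 and 9 factors.

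Across all genes, the change of reads over the chase moved with the labelled share at 0 min. By bin, in the ZCCHC8 line, the median log2 fold change was -0.35 for genes with a share of 0.2 to 0.4, -0.12 for 0.4 to 0.6, 0.20 for 0.6 to 0.8 and 0.45 for 0.8 to 1. In the METTL3 line these medians were -0.29, -0.097, 0.22 and 0.47, and in the YTHDC1 line -0.38, -0.11, 0.24 and 0.47. The alignment allowed a limited number of mismatches per read, and its part in these values was not tested. Klf2 and Klf4 lay above the median of their bin in each line. Tfcp2l1, Nr0b1, Esrrb, Zfp42, Tbx3 and Klf5 lay below theirs in each line. Nanog and Prdm14 lay above in some lines and below in others. Zfp42, in the bin of 0.8 to 1, had -0.36, -0.31 and -0.0090, none of which passed without the block.

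**Figure D5:**
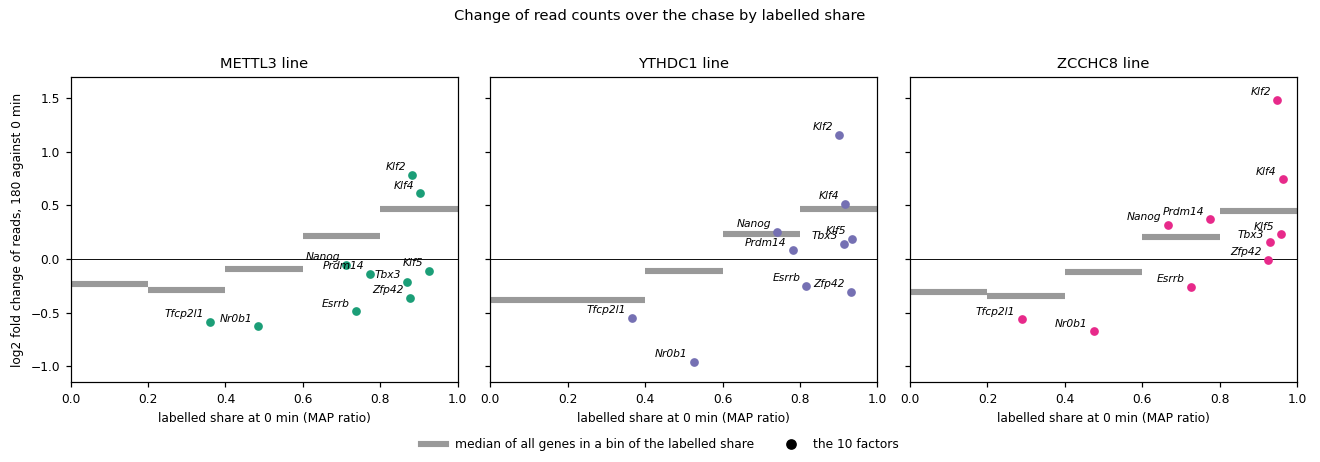
log2 fold change of read counts, 180 against 0 min of chase (y axis), against the mean labelled share at 0 min (x axis) for the 10 factors (points) in each line, with grey bars at the median of all genes in bins of 0.2. Klf2 is the highest point in each line (0.79, 1.16 and 1.49) and Nr0b1 the lowest (-0.63, -0.96 and -0.68).

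No difference in label between the arms passed the test for any factor. The slope of the log2 MAP ratio over the chase, compared between arms with limma, differed by -0.065 to 0.157 per h (METTL3 line), -0.060 to 0.121 per h (YTHDC1 line) and -0.055 to 0.065 per h (ZCCHC8 line), with SEs of 0.0486 to 0.116 per h. In these tests 0.422%, 0% and 0% of all genes passed, with 594, 195 and 147 genes at an unadjusted p under 0.05. Of the factors, 0 passed and 0 had an unadjusted p under 0.05 in any line. Klf5 in the METTL3 line and Prdm14 in the ZCCHC8 line had fewer than 100 reads in a library and were not tested.

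Label at the end of the pulse was compared as the 0 min value of a straight-line fit over all chase times (limma). The time courses of some factors did not follow a straight line. At the end of the pulse, 13.2%, 0.0227% and 0.0965% of all genes passed in the METTL3, YTHDC1 and ZCCHC8 lines, and 0 factors (limma). Nr0b1 in the METTL3 line had a labelled share of 0.541 in Ctrl and 0.429 in dTAG at 0 min (means of 2 replicates). The fitted log2 difference of Nr0b1 was -0.38 (SE 0.17, limma adjusted p = 0.171), where the median of all genes was -0.10. The labelled part of Nr0b1 was 49.1 CPM in Ctrl and 24.1 CPM in dTAG at 0 min, and its unlabelled part 42.0 and 32.2 CPM. The fitted difference of Esrrb was -0.36 (SE 0.19, limma adjusted p = 0.237) in the METTL3 line. That of Tfcp2l1 was -0.23 (SE 0.094, limma adjusted p = 0.672) in the ZCCHC8 line. Of all the tested factors, 1, 0 and 1 had an unadjusted p under 0.05 in the METTL3, YTHDC1 and ZCCHC8 lines. Over all genes the counts were 1979 of 8289, 570 of 8820 and 441 of 7251 (limma).

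Genes around the naive network were counted in lists of related function. Of 12 other genes of the naive state, 2 rose in the METTL3 line, 0 passed in the YTHDC1 line and 8 rose in the ZCCHC8 line, with 0 lower. Without the block, the shares of all genes that passed in either direction were 20.1% (METTL3), 5.25% (YTHDC1) and 39.6% (ZCCHC8). Counts of this and the following lists without the block are to be read against these shares. The naive genes that rose in the METTL3 line were the orphan nuclear receptor Nr5a2 (50.0 ± 11.8 to 71.6 ± 14.3 CPM, log2 0.55) and the TGFβ family ligand Gdf3 (98.2 ± 13.8 to 117.6 ± 10.2 CPM, log2 0.29). Those of the ZCCHC8 line included Fbxo15 (238.5 ± 34.6 to 328.6 ± 32.0 CPM, log2 0.53), Dppa2 (103.8 ± 32.4 to 140.1 ± 25.9 CPM, log2 0.53) and Dppa3 (96.1 ± 21.1 to 129.2 ± 19.3 CPM, log2 0.49). The list's median was 0.20 there, beside -0.0035 over all genes, and 0.025 and -0.098 in the METTL3 and YTHDC1 lines.

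Upstream of the factors, Stat3, which carries the LIF signal, fell in the METTL3 line from 102.2 ± 16.9 to 70.9 ± 22.8 CPM (log2 -0.54, SE 0.11, edgeR adjusted p = 0.00558). It was the only gene of 9 in the LIF and STAT3 list to pass there; 0 passed in the YTHDC1 line. For the ZCCHC8 line, the STAT3 target Pim1 rose (27.7 ± 6.83 to 39.9 ± 8.26 CPM, log2 0.59) and the phosphatase Ptpn11 fell (154.1 ± 6.21 to 120.6 ± 5.37 CPM, log2 -0.29). Of 7 genes of canonical Wnt and GSK3, 1 rose in the METTL3 line and 0 passed in the YTHDC1 line. Of the same 7, 1 rose in the ZCCHC8 line, the Wnt target Axin2 (13.9 ± 5.57 to 21.8 ± 4.68 CPM, log2 0.73), and 3 fell, among them Apc (273.6 ± 45.2 to 203.3 ± 36.6 CPM, log2 -0.37) and Gsk3b (47.0 ± 7.66 to 36.5 ± 5.85 CPM, log2 -0.30), both of the complex that degrades β-catenin.

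Of 7 genes needed to leave the naive state, 1 rose and 1 fell in the METTL3 line, Rbpj (log2 0.29) and Flcn (log2 -0.51). In the YTHDC1 line 1 rose, Etv5 (log2 0.32), and in the ZCCHC8 line 3 rose and 1 fell, the latter Fnip1 (log2 -0.14). Of 9 formative and primed genes tested, 1 rose and 1 fell in the METTL3 line, the growth factor Fgf5 (3.82 ± 1.18 to 7.86 ± 1.05 CPM, log2 1.09) and the DNA methyltransferase Dnmt3b (455.1 ± 132.8 to 313.3 ± 87.7 CPM, log2 -0.51). In the YTHDC1 line 1 fell, Dnmt3a (log2 -0.38). In the ZCCHC8 line 5 rose, among them Otx2 (12.4 ± 4.65 to 21.0 ± 4.42 CPM, log2 0.84), Pou3f1 (4.52 ± 0.902 to 7.51 ± 1.74 CPM, log2 0.79) and Dnmt3a (log2 0.48). With the block, 48.5% (METTL3), 27.3% (YTHDC1) and 45.9% (ZCCHC8) of all genes passed. The formative and primed list then had 4 higher and 2 lower in each of the METTL3 and YTHDC1 lines. In the ZCCHC8 line it had 7 higher and 0 lower. The naive list had 2 higher and 3 lower in METTL3, 1 and 4 in YTHDC1, and 8 and 0 in ZCCHC8. For the LIF and STAT3 list these were 3 and 1 in METTL3, 1 and 1 in YTHDC1, and 2 and 1 in ZCCHC8.

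Of the primitive endoderm markers, 2 of 6 tested rose in the METTL3 line, among them Dab2 (9.43 ± 4.61 to 21.3 ± 6.52 CPM, log2 1.24), and 0 passed in the YTHDC1 line. In the ZCCHC8 line 2 of 7 rose, Sox17 (0.817 ± 0.282 to 1.47 ± 0.406 CPM, log2 0.88) and Dab2 (log2 0.57), and 1 fell, Lama1 (log2 -0.32). The list summed to 131.8 to 440.4 CPM over all libraries, most of it Lama1 (112.4 to 411.6 CPM), with the defining factors Gata6 and Sox17 at most 2.08 and 1.98 CPM. Of the 3 trophectoderm markers tested, 1, 0 and 2 rose in the METTL3, YTHDC1 and ZCCHC8 lines, among them Eomes (log2 1.80) in the METTL3 and Krt8 (log2 0.36) in the ZCCHC8 line. Of 5 feeder fibroblast markers tested, 0, 0 and 1 rose, and 0 fell. The part of these cell types in the values of the factors was not tested.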

How the data were processed

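Total RNA of 36 libraries was labelled, alkylated and sequenced in pairs from a stranded kit. The authors removed ribosomal reads, aligned the rest to mm10 with STAR 2.5.2b (unique, end to end, mismatches limited), and GRAND-SLAM was run on the 6 libraries of each line and replicate. The release of the UCSC annotation and the use of strand in counting were not given in the sources used here. Without strand, reads of Tbx3 and of its antisense neighbour Tbx3os1 could not be told apart. The read counts used are the deposited, unscaled whole numbers for each gene. The authors' new-to-total ratio, a fraction of a gene's reads, was estimated separately in each of the 6 tables. The deposited conversions and T coverage are signal sums over reads, used for the T-to-C rate. A total of 180 further columns of the libraries were not used. A gene missing from a table was given 0 reads there.

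In each line the 6 libraries of each arm were compared by edgeR 4.0.16 (TMM, filterByExpr, robust quasi-likelihood F test) in a model that included chase time, with the adjustment of Benjamini and Hochberg over all genes tested and a threshold of 0.05. CPM was scaled by TMM over all 36 libraries. The log2 MAP ratio was tested with limma 3.58.1 where no library of the line had under 100 reads of the gene or a ratio under 0.02. Half-lives were fitted log-linearly and not tested, since an exact permutation test of 2 against 2 cannot reach the threshold. Alternatives were DESeq2 1.42.0, RLE size factors, no filter, the replicate block, each replicate left out, chase libraries summed, 0 min libraries left out, the posterior mean, a looser minimum for label (30 reads and a ratio of 0.005) and other measures of label. When a replicate was left out, libraries of an arm differed only in chase time, so p-values of those fits hold no spread between replicates. Replicate numbers come from the labels. Deviations of libraries with the same number, in different arms at one time, correlated at 0.675 to 0.825 in the METTL3, 0.743 to 0.803 in the YTHDC1 and 0.222 to 0.235 in the ZCCHC8 line over 13679 genes, so the numbers were taken to pair the samples. The statistics were tested on simulated data without deviations shared by libraries of one replicate number. The simulated difference in label loss was larger than any found for a factor. Those data thus cannot show how the fits without the block behave here, or whether small differences in label loss would be found. The factors and the gene lists were chosen with earlier results of these data known. Genes of other lists are named if they passed, moved one way in 6 of 6 pairs and were among the 3 largest changes of their list in a line. Some genes that met this rule are not reported here. Scripts ran in R 4.3.3 and, for tables and plots, in Python 3.11.15 with pandas 2.3.3, matplotlib 3.10.9, numpy 2.4.6 and scipy 1.17.1.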

Additional observations from a re-analysis of the deposited data

Results flagged for a closer look

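For 2 of the factors the response to dTAG-13 differed between lines by the test of the difference itself (edgeR interaction over all 36 libraries). Nanog differed by 0.67 on the log2 scale between the METTL3 and YTHDC1 lines, with a higher mean in dTAG than in Ctrl in the METTL3 line (295.6 against 228.0 CPM) and a lower one in the YTHDC1 line (200.5 against 242.7 CPM). Nr0b1 differed by -0.93 between the METTL3 and YTHDC1 lines and by 0.59 between the ZCCHC8 and METTL3 lines, with 48.4 against 76.7 CPM in the METTL3 line, 112.7 against 96.3 CPM in the YTHDC1 line and 92.0 against 97.6 CPM in the ZCCHC8 line. Each line is 1 clone, so the depleted protein and the clone cannot be told apart.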

How the results depend on the processing

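Counts of factors called depended on how the replicates entered the fit. With dTAG against Ctrl, 1 factor in the METTL3 line became 2 with DESeq2, 6 with the replicate block and 0 without the 0 min libraries. Summing the chase libraries gave 0 factors there, and 6 with the block. In the YTHDC1 line 0 became 1 with DESeq2, 4 with the block and 5 when summed with the block. In the ZCCHC8 line 3 became 5 without a filter and 5 with the block. The count there was 1 when summed and 6 when summed with the block. The sum with the block and the half-life from labelled CPM were chosen after seeing the data. All genes called moved as well: 2898, 746 and 5533 without the block, 6994, 3875 and 6405 with it, 0, 0 and 3828 when summed. When summed with the block, 2219 genes were higher and 2047 lower of 15895 in the METTL3 line. The YTHDC1 line had 2068 and 2489 of 15513, and the ZCCHC8 line 3447 and 3356 of 15455. DESeq2 called 1910 higher and 1712 lower of 14413 in the METTL3 line, and 505 and 651 of 14199 in the YTHDC1 line. Without the 0 min libraries the METTL3 line had 388 and 313 of 14117. Without a filter the ZCCHC8 line had 2988 and 3162 of 21237.

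Over the chase, 3 factors became 6 with the block and 6 with either replicate left out in the METTL3 line, and 7 with the block and 6 to 9 with one left out in the YTHDC1 line. Of all genes, 47.3% (METTL3) and 67.2% (YTHDC1) passed over the chase with the block, against 16.1% and 41% without it. Calls over all genes also rose with either replicate left out in both lines. Counts of factors from those fits are to be read against that rise, and their p-values hold no spread between replicates. For differences between lines in the response, METTL3 minus YTHDC1 went from 2 to 8 with the block, where 42.8% of all genes passed. The count was 0 when summed, with 38 genes higher and 25 lower of 16560. When summed with the block it was 7, with 2165 genes higher and 2137 lower. ZCCHC8 minus YTHDC1 went from 0 to 3 with the block, where 32.3% of all genes passed. It was 1 with DESeq2, with 1232 genes higher and 914 lower of 15105. RLE size factors also gave 1, with 1195 genes higher and 833 lower. When summed with the block it was 2, with 1415 genes higher and 1367 lower of 16560. ZCCHC8 minus METTL3 went from 1 to 3 with the block, where 43.5% of all genes passed. It was 0 when summed, with 220 genes higher and 117 lower of 16560. When summed with the block it was 4, with 2290 genes higher and 2335 lower. Between Ctrl libraries, METTL3 minus YTHDC1 went from 0 to 1 with DESeq2, with 345 genes higher and 308 lower of 14267. With the block it was 3, with 14.3% of all genes. ZCCHC8 minus YTHDC1 went from 0 to 3 with the block, with 46.8% of all genes. ZCCHC8 minus METTL3 went from 5 to 1 without a filter, with 1208 genes higher and 2178 lower of 21667. The block changed the call of 0 factors for label loss or for label at the end of the pulse.

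Among single factors, Nr0b1 in the METTL3 line lost its call when summed (-0.66, edgeR adjusted p = 0.537), Nanog in the ZCCHC8 line when summed (0.19, adjusted p = 0.0638), and Tfcp2l1 there when summed (-0.15, adjusted p = 0.0873). Log2 fold changes changed sign in 10 cases, none called in the fit of all replicates. In the METTL3 line Klf5 was at -0.36 without replicate 1 and -0.83 without replicate 2, and Tfcp2l1 at -0.24 and -0.0021. With one replicate left out, values in the YTHDC1 line ranged from -0.46 to 0.027 for Klf2, -0.29 to 0.041 for Prdm14, -0.012 to 0.11 for Klf4 and -0.012 to 0.10 for Zfp42, and values in the ZCCHC8 line from -0.068 to 0.018 for Klf5, -0.13 to 0.029 for Tbx3 and -0.012 to 0.0056 for Nr0b1. Without the 0 min libraries Klf5, Tbx3 and Nr0b1 in the ZCCHC8 line were at 0.031, 0.00072 and 0.042. Median half-lives moved to 2862 min for Nanog, 148.4 for Klf4, 205.4 for Klf5, 436 for Zfp42, 160.1 for Tbx3 and 511 for Prdm14 from 0 and 90 min alone, to 67.6 for Klf2 and 106.3 for Zfp42 from the T-to-C rate, and to 197.8 for Klf2 and 172.3 for Klf4 from labelled CPM. With one replicate left out they ranged from 175.4 to 220.3 for Nanog, 95.6 to 96.0 for Klf2, 102.8 to 110.3 for Klf4, 125.2 to 133.5 for Klf5, 258.7 to 271.5 for Esrrb, 163.9 to 165.7 for Zfp42, 104.3 to 115.5 for Tbx3 and 149 to 172.8 for Prdm14. Labelled CPM of Klf2 fell in 11 of 12 series, and the series that rose was ranked as the longest half-life. The cause of these differences between settings was not tested. Prdm14 and Klf5, with as few as 93 and 94 reads in a library, are the least precise.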

Other observations

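Labelled CPM of Nr0b1 fell over the chase in 12 of 12 series, to a median of 72.9% of the 0 min value, although its labelled share was higher at 180 than at 0 min in 10 of 12.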
